A study of Mus musculus with 30 samples.

Results

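The neuregulins and the ErbB receptors were described by 8 of the 17477 genes in the deposited count table: the ligand genes Nrg1, Nrg2, Nrg3 and Nrg4 and the receptor genes Egfr, Erbb2, Erbb3 and Erbb4. They were taken by name, through the symbols of the table's Ensembl IDs, and all 8 passed the filter on low counts in both sexes. RNA-seq libraries had been made from poly(A)-selected RNA of the hippocampus in 30 C57 BL/6J mice, all adult, with 1 library per mouse. Socially isolated (SI) mice, 8 females and 7 males, were housed singly from weaning until they were killed as adults. Group-housed (GH) controls, 7 females and 8 males, shared cages over the same period, and the labels do not say which of them were cage mates. No gene was altered in any group, and no treatment apart from housing is named. Per the paper, the same mice had served in an earlier behavioural study of its authors.

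Neuregulins are growth factors with an EGF-like domain, mostly made as membrane proteins and released or exposed by proteolytic cleavage. They bind ErbB3 or ErbB4, and the receptors pair with each other or with ErbB2, which has no known ligand of its own, to activate kinases inside the cell, while EGFR binds EGF and related ligands. In the hippocampus ErbB4 is known mainly from inhibitory interneurons, ErbB3 from oligodendrocyte lineage cells and EGFR from astrocytes and precursor cells. In bulk tissue, a smaller number of such cells and less RNA per cell cannot be told apart.

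Total counts per library ranged from 18809307 to 100844898. The median was 25609585 in SI males and 49542256 in GH males, against 43484444 in SI females and 39728004 in GH females. SI males 25, 33 and 39 had 25609585, 24019553 and 18809307 counts, each below the lowest GH male at 33433048. SI males 8 and 38, with 19349259 and 28047198 counts, were below it too, so low depth was not particular to the 3. All 12 markers of excitatory hippocampal neurons, all 16 of interneurons, all 10 of astrocytes and all 13 of the oligodendrocyte lineage had counts in each of the 30 mice. SI males 25, 33 and 39 stood apart from the other libraries. The length slope of a library is the slope of its log2 levels, each relative to the mean of that gene over 30 mice, on log2 transcript length. It was from -0.407 to -0.308 in these 3 mice, from -0.0612 to 0.153 in the other 4 SI males and from -0.0281 to 0.149 in the 8 GH males. It was from -0.109 to 0.143 in SI females and from -0.0969 to 0.118 in GH females. Values without these 3 mice are given beside the male results.

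Levels of different genes were compared as CPM, the counts scaled to the normalized library size, per kilobase of the gene's median annotated transcript. Nrg3, a neuregulin expressed mainly in the brain, had the highest level of the 8 genes, 12.9 ± 1.92 CPM per kilobase (SD, n = 30 mice), and it was the only one above the median of all genes, 8.25. Erbb4 (4.46 ± 1.19) and Egfr (4.35 ± 0.995) followed. Their order was not separated, as Erbb4 was the higher in 16 of 30 mice. Nrg2 had 3.23 ± 0.517, Nrg1 2.28 ± 0.401 and Erbb3 1.56 ± 0.34 CPM per kilobase, and each of these stood above the next gene in at least 28 of 30 mice. Erbb2 (0.745 ± 0.106) and Nrg4 (0.649 ± 0.183) were lowest and close to each other, with Erbb2 higher in 20 mice. With the longest annotated transcript in place of the median, Egfr had 1.10 CPM per kilobase and moved behind Nrg2, Nrg1 and Erbb3, while Nrg3 stayed first.

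**Figure D1:**
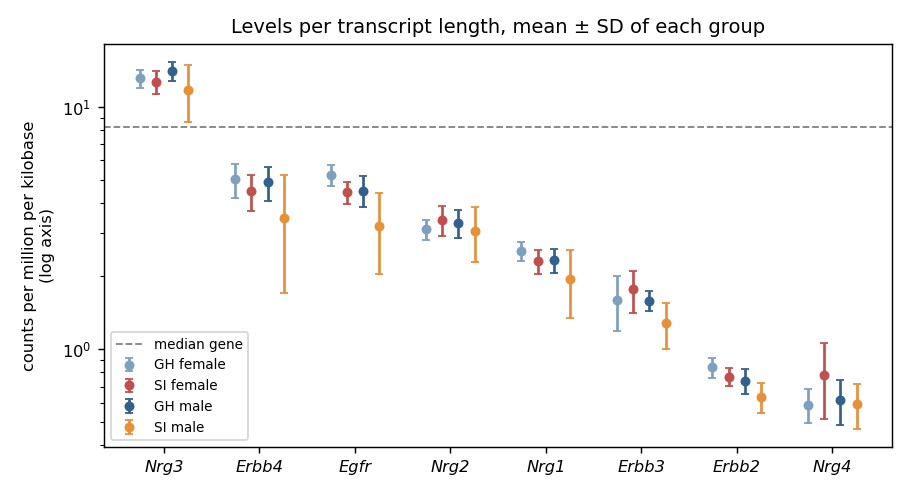
CPM per kilobase (log axis) of each gene, ordered by the mean over 30 mice. Points are the means of GH females (n = 7), SI females (n = 8), GH males (n = 8) and SI males (n = 7), bars are the SD over mice, and the dashed line is the median of all genes, 8.25. Only Nrg3 lies above the line, and the bars of Erbb4 and Egfr overlap in every group.

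The effect of isolation on these genes was first tested in females. Of the 8 genes, 1 passed the threshold of an adjusted p of 0.05, and it was Egfr, which was lower in SI females. Among the 16026 genes tested in females, 624 (3.89%) passed and 470 (2.93%) were lower in SI. At an unadjusted p under 0.05 Egfr was again the 1 gene of the 8, where 20.2% of all genes were below that value. None of the 8 had groups that did not overlap, and 0.3% of all genes did. The 8 genes had a median Log2FC (the fitted log2 fold change of SI against GH) of -0.09, where all genes had 0.01.

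In GH females Egfr, the receptor of EGF and related ligands, had a lowest, median and highest level of 10.9, 14.0 and 14.7 CPM. In SI females these were 9.61, 11.6 and 13 CPM. All 8 SI females lay below the GH median and 5 of the 7 GH females lay above the highest SI female, but the groups overlapped. Egfr fell by 13.2% in SI females in the fit (Log2FC = -0.20, SE 0.0544, 95% interval -0.32 to -0.09, adjusted p = 0.0461 by edgeR's quasi-likelihood test). The difference in mean log2 CPM without surrogate variables was -0.23 (exact permutation test, two-sided, p = 0.0118, and 0.231 after adjustment over all genes). Egfr lies on chromosome 11, from 16652206 to 16818161 on the forward strand of NCBIM37.

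The call for Egfr lay close to the threshold. The adjusted p was 0.19 without surrogate variables, 0.0527 with 1 surrogate variable fewer and 0.0674 when all groups were fitted together, against 0.0166 with DESeq2 and the same surrogate variables and 0.0297 with 1 surrogate variable more. The call held in 5 of 15 fits that left out 1 female, those without SI females 41 or 52 or GH females 46, 47 or 78, with an adjusted p from 0.0196 to 0.0374. It was lost without SI female 45 (0.0829), 49 (0.0858), 53 (0.0619), 63 (0.112), 68 (0.122) or 73 (0.112) and without GH female 48 (0.0911), 54 (0.133), 71 (0.0981) or 79 (0.0571). The Log2FC stayed between -0.25 and -0.18 in these 15 fits.

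Astrocyte markers were lower in SI females, as was Egfr. All 10 had a lower fitted level, and 5 of the 10 passed the threshold, where 2.93% of all genes passed as lower. Their summed level was from 4589 to 6543 CPM in SI females and from 5583 to 7554 in GH females (exact permutation test, two-sided, p = 0.00357, and 0.0373 adjusted over 20 library properties). All 10 microglia markers and 11 of 13 of the oligodendrocyte lineage also had a lower fitted level in SI females, and none of them passed. Of the 16 interneuron markers, 10 had a higher one. Endothelial and pericyte markers summed to 276 to 340 CPM in SI females and 232 to 283 in GH females (exact permutation test, p = 0.00373, and 0.0373 adjusted). Excitatory neuron markers summed to 6958 to 8192 CPM in SI females and 7402 to 9472 in GH females, but 1 gene of the 12, Camk2a, made up most of the sum, and without it the other 11 summed to 2112 to 3022 and 2178 to 2649 (exact permutation test, p = 0.56). The part of these differences in the result for Egfr was not tested.

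The other receptors did not pass in females. Erbb4, the receptor that binds neuregulins and has a kinase of its own, had 27.7, 40.1 and 48.7 CPM as lowest, median and highest level in GH females and 28.7, 34.1 and 45.9 in SI females. The groups overlapped over nearly their whole range, although 7 of 8 SI females lay below the GH median. Its Log2FC was -0.14 (SE 0.068, adjusted p = 0.269 by edgeR). When each library's trend with transcript length and GC content was removed, Erbb4 passed as the second of the 8 genes (Log2FC = -0.12, adjusted p = 0.0417), in a fit that called 8.65% of all genes, and it also passed without GH female 46 (Log2FC = -0.20). Erbb2, the partner receptor without a ligand, had 3.67 to 4.69 CPM in GH females and 3.51 to 4.6 in SI females (Log2FC = -0.15, SE 0.0819, adjusted p = 0.318). Erbb3, which binds neuregulins but has little kinase activity, had 7.71 to 14.8 CPM in GH and 7.26 to 13.3 in SI females (Log2FC = 0.13, SE 0.0866, adjusted p = 0.449). A single GH female, 71, held the highest Erbb3 level, and the next GH female had 9.97 CPM.

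None of the 4 ligands passed in females. Nrg4, which binds ErbB4, had the largest fitted difference of the 8 genes and the fewest reads, 16 to 36 counts per library in GH females and 24 to 88 in SI females. Its lowest, median and highest levels were 0.531, 0.64 and 0.791 CPM in GH females and 0.437, 0.844 and 1.42 in SI females. In 5 of 8 SI females the level was above the highest GH female, but SI female 49 was below the lowest. The Log2FC was 0.46 (SE 0.223, 95% interval -0.01 to 0.93, adjusted p = 0.258), and without SI female 73 it was 0.33.

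Nrg3 differed least, with 23.6, 28.1 and 31.7 CPM in GH females and 23.9, 26.3 and 32.8 in SI females (Log2FC = -0.04, SE 0.0431, 95% interval -0.13 to 0.05). Both groups covered almost the same range. Nrg1, the neuregulin with the best known role in synapses and myelination, had 4.41, 4.78 and 5.61 CPM in GH females and 3.79, 4.34 and 5.38 in SI females. In 5 of 8 SI females the level was under that of every GH female, and the Log2FC was -0.13 (SE 0.0898, adjusted p = 0.434). Nrg2, a close paralogue of Nrg1, had 5.55 to 6.99 CPM in GH and 5.34 to 8.11 CPM in SI females (Log2FC = 0.15, SE 0.0811, adjusted p = 0.33).

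**Figure D2:**
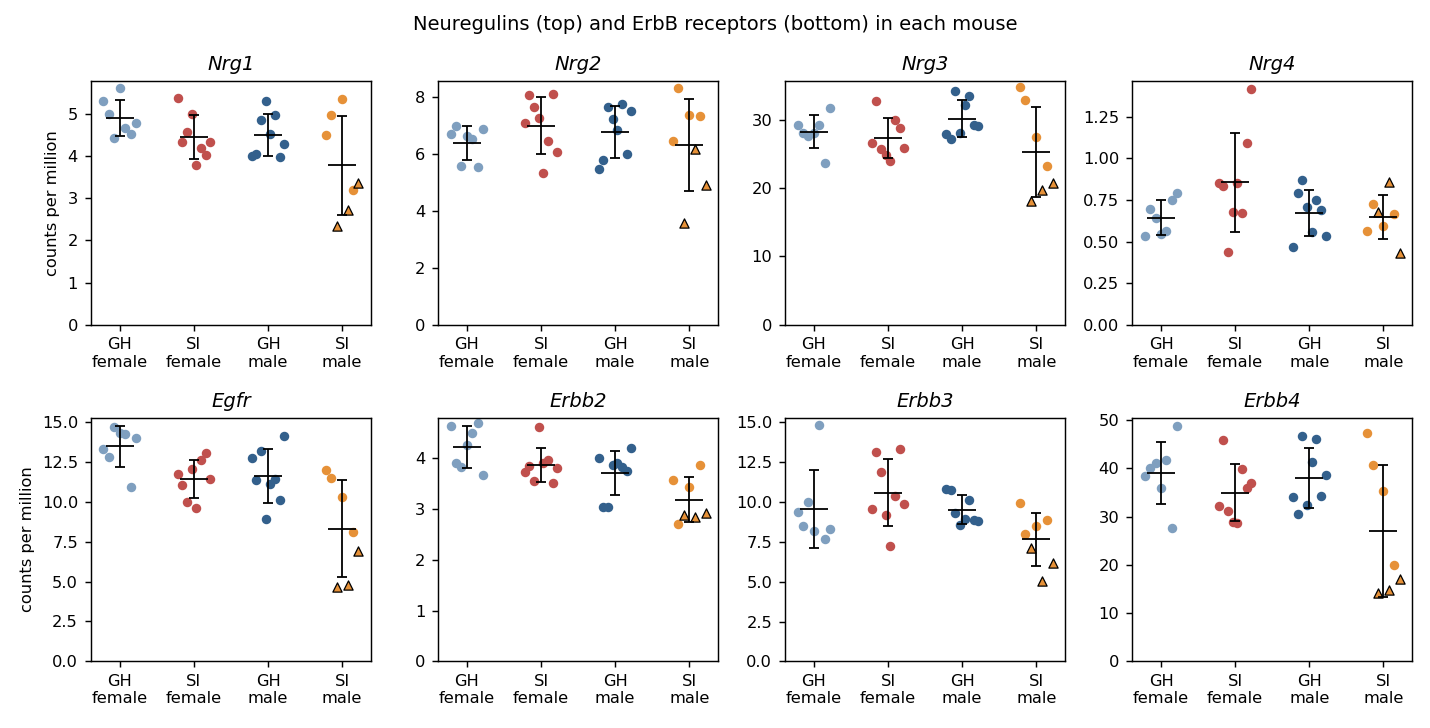
CPM of the 4 neuregulins (top) and 4 ErbB receptors (bottom) in each mouse, by sex and housing. Each point is a mouse, black bars are the mean ± SD of the group, and outlined triangles are SI males 25, 33 and 39. All 8 SI females lie below the GH female median for Egfr, 14.0 CPM, and the 3 triangles lie below every GH male for Nrg1, Nrg3, Egfr, Erbb2, Erbb3 and Erbb4.

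The same question was then asked in males. None of the 8 genes passed at an adjusted p of 0.05, and none of the 15833 genes tested did (0%). At an unadjusted p under 0.05, 1 of the 8 genes (Egfr) and 2060 genes in all (13%) were below the threshold, and DESeq2, given those same 2 surrogate variables, called 44 genes (0.278%), of which none was a neuregulin or ErbB receptor. The fitted Log2FC was below 0 for 7 of the 8 genes and for 50.7% of all genes, and none of the 8 had groups without overlap (0.0568% of all genes). The median Log2FC of the 8 was -0.11. In 6 of the 8 genes, all but Nrg2 and Nrg4, the difference in mean log2 CPM without surrogate variables was further below 0 than the fitted one, and it came nearer to 0 without the 3 SI males that stood apart.

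Egfr had 8.94, 11.4 and 14.1 CPM as lowest, median and highest level in GH males and 4.63, 8.11 and 12 in SI males. SI males 25, 33 and 39 were lowest, from 4.63 to 6.93 CPM, and the other 4 SI males had 8.11 to 12, so that 3 of these 4 lay within the GH range. The mean log2 CPM differed by -0.56 (exact permutation test, two-sided, p = 0.0191, and 0.171 adjusted over all genes). The fitted Log2FC with 2 surrogate variables was -0.25 (SE 0.106, 95% interval -0.48 to -0.03, adjusted p = 0.353 by edgeR). Without the 3 mice the difference in mean log2 CPM was -0.15 (exact permutation test, p = 0.291).

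Erbb4 had 30.6, 36.5 and 46.7 CPM in GH males and 14.3, 19.9 and 47.3 in SI males, the widest spread of the 8 genes in SI males (a CV of 50.8%). The 3 SI males that stood apart had 14.3 to 17 CPM and SI male 38 had 19.9, while the highest SI male, 7, was above every GH male. The mean log2 CPM differed by -0.63 (exact permutation test, p = 0.0438, and 0.191 adjusted over all genes), and by -0.14 without the 3 mice (exact permutation test, p = 0.578). In the fit the Log2FC was -0.21 (SE 0.123, adjusted p = 0.456).

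Erbb3 had 8.55 to 10.8 CPM in GH males and 5.06 to 9.93 in SI males, and 5 of the 7 SI males lay below the lowest GH male, 2 of them among the 4 that did not stand apart. Its mean log2 CPM differed by -0.34 (exact permutation test, p = 0.0132, and 0.17 adjusted), with a fitted Log2FC of -0.16 (SE 0.0979, adjusted p = 0.468). Erbb2 had 3.03 to 4.20 CPM in GH males and 2.69 to 3.86 in SI males. Its mean log2 CPM differed by -0.22 (exact permutation test, p = 0.043, and 0.19 adjusted), with a fitted Log2FC of -0.08 (SE 0.0906, adjusted p = 0.716). All 4 receptors thus had a lower mean log2 CPM with an unadjusted exact p under 0.05, as did 14.5% of all genes tested in males, and without the 3 mice the exact permutation p of each receptor was 0.206 or higher.

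Among the ligands in males, Nrg3 had 27.2, 29.2 and 34.2 CPM in GH males and 18.2, 23.2 and 34.8 in SI males. The 3 mice that stood apart had 18.2 to 20.8 CPM, and the other 4 had 23.2 to 34.8. The mean log2 CPM differed by -0.29 (exact permutation test, p = 0.058), and by -0.04 without the 3 mice, with a fitted Log2FC of -0.09 (SE 0.067, adjusted p = 0.57). Nrg1 had 2.33 to 3.36 CPM in the 3, 3.20 to 5.36 in the other 4 and 3.98 to 5.31 in GH males, and a fitted Log2FC of -0.04 (SE 0.124). Its mean log2 CPM differed by -0.30, and by -0.02 without the 3 mice. Nrg2 had 5.47 to 7.76 CPM in GH and 3.57 to 8.34 in SI males (Log2FC = 0.09, SE 0.124), and its mean log2 CPM differed by -0.14, but by 0.13 without the 3 mice (exact permutation test, p = 0.289). Nrg4 had 0.47 to 0.871 CPM in GH and 0.433 to 0.858 in SI males, with 8 to 35 counts per SI library, and a fitted Log2FC of -0.14 (SE 0.199). The mean log2 CPM of Nrg4 differed by -0.05 both with and without the 3 mice. The adjusted p of Nrg1, Nrg2 and Nrg4 was 0.79 or higher.

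In the 3 SI males, 6 of the 8 genes were below the lowest GH male in each of the 3, all but Nrg2 and Nrg4, as were 30.5% of all genes. Over all 30 mice the log2 CPM of Erbb4 had r = 0.95 with the length slope and that of Nrg3 r = 0.93, and over the 27 other mice these were 0.85 and 0.88. For Egfr r was 0.87 over 30 mice and 0.49 over 27, and for Erbb2 it was 0.41 and -0.24. These are descriptions, since level and slope come from the same library. Erbb4 and Nrg3 span the longest stretches of genome of the 8 genes, 1075874 bases on chromosome 1 (68078760 to 69154633) and 1104239 bases on chromosome 14 (39182138 to 40286376), both on the reverse strand of NCBIM37. The slope is on transcript length and not on genomic span. The median annotated transcript has 7815.5 bases for Erbb4, 2157 for Nrg3, 6016 for Erbb3 and 5012 for Erbb2. For Erbb3 r with the slope was 0.74 over 30 mice and 0.53 over 27. These values were 0.76 and 0.24 for Nrg1, 0.67 and 0.41 for Nrg2, and 0.05 and -0.04 for Nrg4. SI males 25, 33 and 39 had summed astrocyte markers of 4039 to 4702 CPM and summed interneuron markers of 2076 to 2272 CPM, against 5024 to 6934 and 1747 to 2020 in GH males. The summed excitatory neuron markers, Camk2a included, were also lower in the 3 mice (4890 to 5719 against 7534 to 8669). Without Camk2a the other 11 summed to 2293 to 3260 CPM over all SI males and 2461 to 3101 in GH males (exact permutation test, p = 0.74). In the 3 mice sums were higher for the oligodendrocyte lineage (8699 to 11075 against 6378 to 8339) and microglia (601 to 703 against 392 to 486). The same held for endothelial cells and pericytes (352 to 390 against 263 to 346), while choroid plexus, thalamus and striatum markers overlapped with GH males. The part of the length slope and of the marker levels in the receptor values was not tested.

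Leaving out SI male 27 changed the male comparison as a whole. It then called 2413 genes (15.3%), and Egfr was among them (Log2FC = -0.37, adjusted p = 0.0401 by edgeR). In the other 14 fits that left out 1 male, no gene of the table was called, and the Log2FC of Egfr was from -0.34 to -0.13.

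**Figure D3:**
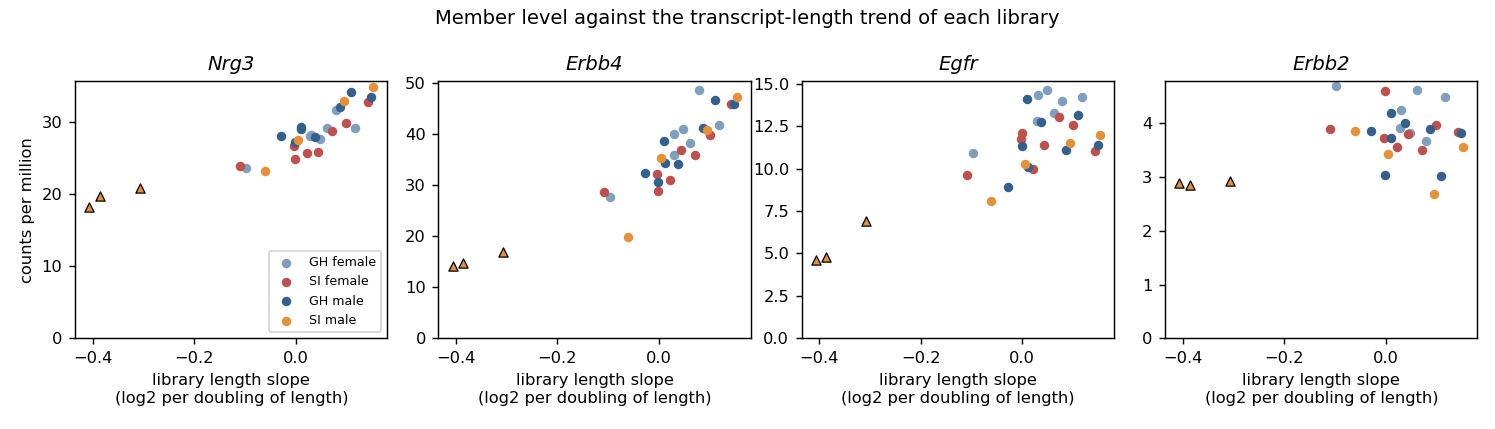
CPM of Nrg3, Erbb4, Egfr and Erbb2 in each of the 30 mice against the length slope of its library, in log2 units per doubling of transcript length. Colours are the 4 groups and outlined triangles are SI males 25, 33 and 39, whose slopes of -0.407 to -0.308 are the lowest of all. Among the 27 other mice r with the slope is 0.88 for Nrg3, 0.85 for Erbb4, 0.49 for Egfr and -0.24 for Erbb2.

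**Figure D4:**
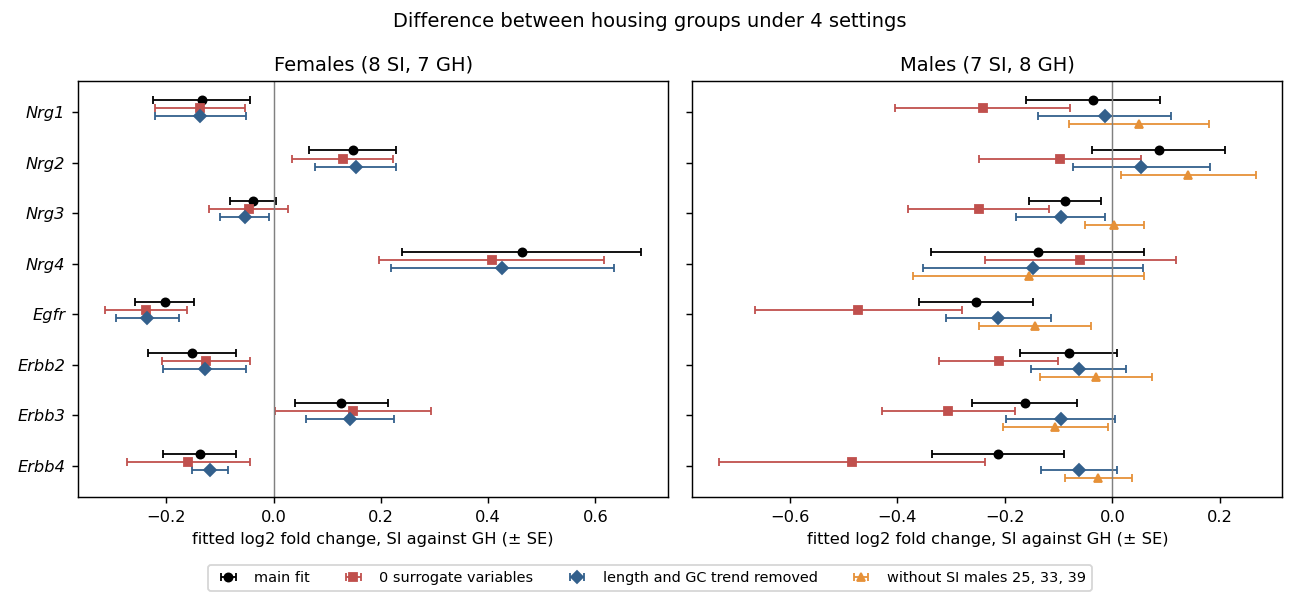
Fitted Log2FC of SI against GH with its SE for each gene in females (left) and males (right), under the reported fit, with 0 surrogate variables, with the length and GC trend removed, and, in males, without SI males 25, 33 and 39. Egfr stays below 0 in females under all 3 fits shown. In males the receptors lie nearer 0 without the 3 mice than in the reported fit, both with 2 surrogate variables.

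Whether isolation acted differently in the sexes was tested as an interaction over all 30 mice. None of the 8 genes passed, and 1 of 16391 genes did (0.0061%). The lowest unadjusted p of the 8 was that of Nrg4, whose Log2FC in males minus that in females was -0.63 (SE 0.273, 95% interval -1.19 to -0.07, adjusted p = 0.674 by edgeR). For the other 7 genes the interaction was from -0.20 to 0.12. For Egfr, the gene that passed in females, it was 0.06 with a 95% interval of -0.15 to 0.27, so a difference between the sexes as large as the female effect itself was within the interval.

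Males and females were also compared within GH mice. No gene of the 8 passed, and 28 of 16391 genes did (0.171%). Egfr had 13.5 ± 1.29 CPM in 7 GH females and 11.6 ± 1.68 in 8 GH males, with a Log2FC of males against females of -0.20 (SE 0.0787) and an adjusted p of 0.29 by edgeR. Without GH male 15 this Log2FC was -0.08. limma-voom with sample quality weights gave -0.26 and an adjusted p of 0.0438, and it called 7.78% of all genes. Nrg3 was 28.2 ± 2.43 CPM in GH females and 30.1 ± 2.7 in GH males (Log2FC = 0.11, SE 0.0533, adjusted p = 0.338). The other 6 genes were between -0.13 and 0.16. These fits share the GH mice with the comparisons of housing.

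The genes around the receptors were read from 5 lists with 97 genes, of which 94 could be tested. In females 6 of the 94 passed, all lower in SI (6 of 94 against 2.93% of all genes lower), and in males none did. The median Log2FC of the 94 was -0.02 in females and -0.08 in males. At an unadjusted p under 0.05 males had 23 lower and 2 higher of 94, against 7.38% and 5.63% of all genes. Without the 3 SI males that stood apart these were 6 lower and 1 higher of 94, in a fit where 5.88% of all genes were below that p.

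Of the 10 genes listed as postsynaptic or nuclear partners of ErbB4, 3 passed as lower in SI females, where 2.93% of all genes did. Erbin, a scaffold that binds ErbB2, was 100.05 ± 17.4 CPM in GH and 82.3 ± 8.37 in SI females (Log2FC = -0.24, SE 0.0503, adjusted p = 0.0144 by edgeR). Dlg4, which encodes PSD-95, had 1115 ± 98.9 and 957 ± 51.8 CPM (Log2FC = -0.18, SE 0.0417, adjusted p = 0.0242). Dlg2, which encodes PSD-93, had 323 ± 38.3 and 270 ± 26.7 CPM (Log2FC = -0.19, SE 0.0482, adjusted p = 0.0375). The other 7 partners did not pass, and 9 of the 10 had a fitted level lower in SI. The median Log2FC of the 10 was -0.09, where all genes had 0.01.

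Of the 48 adaptors and downstream kinases, 3 passed as lower in SI females and none as higher. Of all genes, 2.93% passed as lower, and 154 of 16026 as higher. Camk2a, the alpha subunit of calcium/calmodulin-dependent kinase II, had 5904 ± 738 CPM in GH and 4808 ± 448 in SI females (Log2FC = -0.24, SE 0.0523, adjusted p = 0.0197 by edgeR), and it is also 1 of the 12 excitatory neuron markers. Gab2, a docking protein for PI3-kinase, had 25 ± 1.58 and 21.1 ± 2.09 CPM (Log2FC = -0.23, SE 0.0574, adjusted p = 0.0327). Mapk3, which encodes the kinase ERK1, had 184 ± 12.6 and 165 ± 9.91 CPM (Log2FC = -0.14, SE 0.0375, adjusted p = 0.0448). The remaining 45 did not pass, with fitted values from -0.34 to 0.31 over the whole list. No call was made among the 4 tested ligands of EGFR (Egf, Tgfa, Hbegf and Btc), the 12 proteases that process neuregulins and ErbB4, or the 20 negative regulators. Of the ligands, Areg did not pass the filter, and Ereg and Epgn are not among the genes of the table used here.

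In males the 6 pathway genes with the smallest p were Dlg2 (Log2FC = -0.39, SE 0.102), the adaptor gene Shc3 (-0.79, SE 0.214), the S6 kinase gene Rps6kb2 (0.33, SE 0.0944), the Ras pathway inhibitor Spred1 (-0.29, SE 0.0886), the PI3-kinase subunit gene Pik3r1 (-0.19, SE 0.0571) and the adaptor gene Crkl (-0.18, SE 0.0554). Their adjusted p by edgeR was from 0.295 to 0.3. Without the 3 SI males that stood apart the Log2FC was -0.25 for Dlg2, -0.61 for Shc3, 0.30 for Rps6kb2, -0.25 for Spred1, -0.13 for Pik3r1 and -0.08 for Crkl, with the greatest loss in proportion for Crkl and then Dlg2. Values in SI males were spread widely, with Shc3 at 23.7 ± 18.3 CPM against 50.5 ± 9.6 in GH males and Dlg2 at 193 ± 91.8 against 301 ± 30.5. Of the 20 negative regulators, 18 had a fitted level lower in SI males (50.7% of all genes) and 7 had an unadjusted p under 0.05 (13% of all genes), and without the 3 mice these counts were 12 and 2.

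The pathway calls in females also depended on the fit. Leaving out 1 female gave from 0 calls (without SI females 63 or 68 or GH female 54) to 15 (without GH female 46) among the 94 genes, with 1 call without SI female 49 or GH female 48, 2 without SI female 73, 3 without GH female 71 and 10 without SI females 41 or 52 or GH female 78. The all-gene calls varied too, with 1374 of 16067 genes without GH female 46. They were 169 of 16006 without SI female 63, 88 of 16002 without SI female 68 and 226 of 16119 without GH female 54. In males, leaving out SI male 27 gave 30 calls among the 94, in a fit that called 15.3% of all genes. Leaving out each other male gave none, in fits that called no gene at all.

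Across mice, the members were compared by the deviation of each mouse's log2 CPM from the mean of its group. These correlations are descriptions over 30 mice that share depth and length trends. Nrg3 and Erbb4 were most alike of the 28 pairs (Pearson's r = 0.97, Spearman's rho = 0.96, n = 30), and r was 0.94 over the 27 mice without SI males 25, 33 and 39. Egfr was next, with r = 0.83 to Erbb4 and 0.80 to Nrg3, and these were 0.64 and 0.58 over 27 mice. In all, 23 of 28 pairs had a positive r, with a median of 0.28, and over 27 mice 16 pairs did, with a median of 0.15. Nrg4 and Erbb2 had the lowest value, -0.35 over 30 mice and -0.39 over 27.

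Erbb2, the usual partner of the neuregulin receptors, was not ordered like them, with r = 0.13 to Erbb3 and 0.02 to Erbb4 over 30 mice and -0.07 and -0.37 over 27. Nrg1, Nrg2 and Nrg3 had r of 0.68 with each other, and 0.36 to 0.46 over 27 mice.

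**Figure D5:**
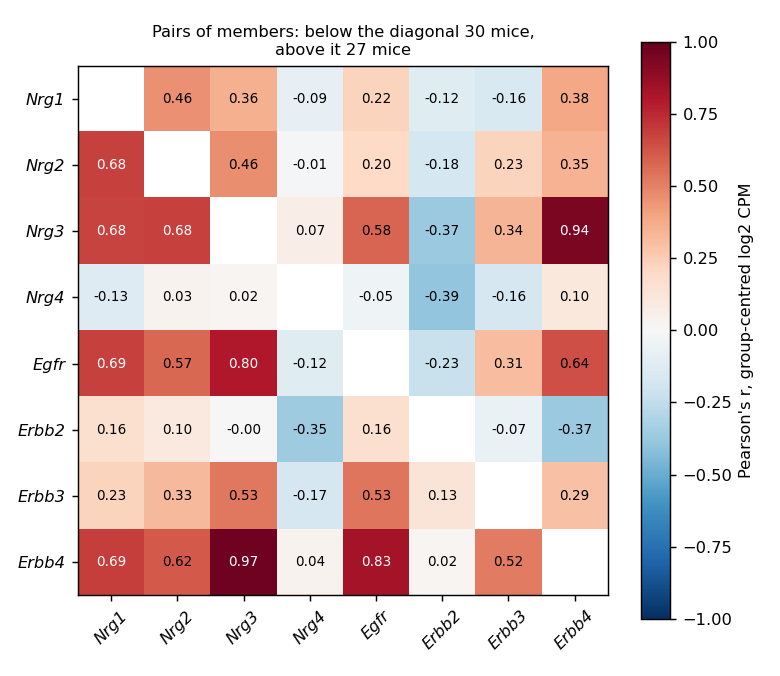
Pearson's r between each pair of the 8 genes, from log2 CPM centred within each group. Values below the diagonal are over 30 mice and those above it over the 27 mice without SI males 25, 33 and 39. Nrg3 and Erbb4 stay at 0.94 above the diagonal, while most pairs with Nrg1, Nrg2 and Egfr come nearer to 0.

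Among 15089 genes tested in both sexes, the gene most like each member was found in the same way. For Erbb4 it was Zyg11b (r = 0.98), followed by Aak1 and Cep170 (both 0.97), and for Nrg3 it was Tmem132b (0.98), followed by Aak1 and Erbb4 itself (both 0.97). For Egfr it was Mre11a (0.96), followed by Arhgef12 and Ttbk2 (both 0.93). Erbb3 was most like Pik3c2b (0.86), Gab1 (0.86) and Spg20 (0.85), and Gab1 encodes a docking protein of the adaptor list. Erbb2 was most like Col6a2 (0.85), Anpep (0.79) and Aebp1 (0.76), of which Col6a2 encodes a collagen chain. Nrg1 was most like Syt10 (0.89), 4632415L05Rik (0.87) and the adaptor gene Shc3 (0.87). Nrg2 was most like Obsl1 (0.84), Kdm6b (0.83) and Zcchc14 (0.83). Nrg4, with the fewest counts, had the weakest likeness to any gene, led by Ly6c2 (0.60), 1600029O15Rik (0.59) and Trim52 (0.54). These orders were not the same without the 3 SI males. Over the other 27 mice the leading gene stayed for Erbb4, Egfr and Nrg4, but it was B3gnt2 (0.80) for Nrg1, Gm16314 (0.77) for Nrg2, Aak1 (0.96) for Nrg3, Ptgis (0.88) for Erbb2 and Gm98 (0.85) for Erbb3.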

How the data were processed

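Expression was measured by RNA-seq in 30 hippocampi. Per the paper and the submitters' processing notes, the authors used Trimmomatic 0.39 for trimming and Salmon 1.8.0 for quantification, and they deposited estimated counts per gene, held as whole numbers without normalization. The notes name GRCm39 and mm39, and the annotation is not given in the sources used here. The table holds genes with a total of at least 100 counts. Symbols were matched for 16439 IDs (94.1%), and lengths, GC content and coordinates are those of GENCODE on NCBIM37, with lengths for 15964 (91.3%). The members, gene lists and alternatives, and the 3 SI males left out, were chosen with earlier results of these data known.

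Genes were kept by filterByExpr (minimum count 10), normalized by TMM and tested with edgeR 4.0.16 (glmQLFit, glmQLFTest, R 4.3.3) within each sex, with surrogate variables from svaseq of sva 3.50.0 (3 in females, 2 in males, 4 in the fit of all 30 mice for the interaction and the sexes). Benjamini-Hochberg adjustment was over all genes tested, and calls were made under 0.05. CPM used TMM library sizes and log2 CPM a prior count of 2. Single values were tested by exact permutation over 6435 splits of the 15 mice of a sex, for which 0.000155 is the smallest p, or 495 splits without 3 males. All 8 members were named, with pathway genes called in either sex, the 6 of smallest p in each sex, and the 3 genes most correlated with each member. The edgeR fit with 0 surrogate variables and the removal of a length trend were tried on simulated data, and the surrogate variable step was not. Alternatives were DESeq2 1.42.0, limma-voom (limma 3.58.1), other numbers of surrogate variables, filters and size factors, removal of length and GC trends (lowess span 0.3), the position digit of the labels, and leaving out each mouse. Depth limits mainly Nrg4, and the part of the lower median depth of SI males in the male values was not tested. Sequences were not used here.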

Additional observations from a re-analysis of the deposited data

Results flagged for a closer look

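In the 32 combinations of 8 genes and 4 groups, the mouse at either end was compared with its nearest neighbour in the group. Chance flags about 1 in 20 groups, or 1.6 of 32, and 2 were found. The Erbb3 level of GH female 71 was 14.8 CPM, while the next GH female had 9.97 and the lowest 7.71, so the gap took 0.681 of the range. Without this mouse the female Log2FC of Erbb3 was 0.24, against 0.13 with it, and without SI female 68, which these gaps did not single out, it was 0.05. The Erbb2 level of SI female 52 was 4.6 CPM, with the next SI female at 3.96 and the lowest at 3.51, a gap of 0.585 of the range. Without this mouse the female Log2FC of Erbb2 was -0.19, against -0.15 with it.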

How the results depend on the processing

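Egfr in females kept its direction under all 14 alternatives and when any 1 female was left out, but the threshold was passed in 5 of 13 alternative fits across all genes. The number of the 8 genes called in females was 0 with DESeq2 without surrogate variables, with 0 or 1 fewer surrogate variables, without a filter, with at least 10 counts in every sample, with trends removed and 0 surrogate variables, with the position digit and with all groups in 1 fit, and 2 with trends removed. Leaving out 1 mouse gave 0 to 2 in females and 0 to 1 in males. In the comparison of sexes in GH mice limma-voom called 1. The pathway genes called in females were 13 with DESeq2, 12 with 1 surrogate variable more, 15 with trends removed, 2 with all groups in 1 fit and 0 with 0 surrogate variables, with or without trends removed or with the position digit, and in males 1 with DESeq2 and 4 with DESeq2 without surrogate variables. Leaving out 1 mouse gave 0 to 15 in females and 0 to 30 in males. Over all 16026 genes in females, DESeq2 with the same surrogate variables called 1263. It was 1083 with 1 surrogate variable more, 1386 with trends removed, 41 with trends removed and 0 surrogate variables, and 0 with 0 surrogate variables. All groups in 1 fit called 434 of 16391 for females. Of 15833 genes in males, DESeq2 called 44 with the same surrogate variables and 304 without them. The causes were not tested.

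Small male values changed sign. Nrg1 was 0.039 with 1 surrogate variable more, 0.013 with limma-voom and 0.049 without SI males 25, 33 and 39. Nrg2 was -0.085 with DESeq2 and -0.10 with edgeR without surrogate variables, -0.14 with trends removed and 0 surrogate variables, -0.0045 with the position digit and -0.14 as a mean of log2 CPM. Nrg3 was 0.0038 without the 3 males, and with trends removed and 0 surrogate variables Erbb2 was 0.030 and Pik3r1 0.0058. Leaving out 1 mouse gave -0.21 to 0.15 for Nrg1, -0.18 to 0.026 for Nrg3 and -0.39 to 0.055 for Erbb4 in males. The interaction of the 7 genes other than Nrg4 changed sign in 30 of 91 alternative values, and the sex difference of the 6 genes other than Egfr and Nrg3 in 15 of 77.

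Marker lists taken as a mean log2 CPM gave, in males, 0.039 for interneurons, -0.040 for the oligodendrocyte lineage, -0.092 for astrocytes, 0.049 for endothelial cells and pericytes, -0.038 for excitatory neurons, -0.027 for choroid plexus and 0.045 for striatum, none with an exact permutation p under 0.05, and 0.053 for excitatory neurons in females, whose summed level was lower in SI. In an alternative chosen after seeing the data, the sum of excitatory neuron markers without Camk2a differed by 71.2 CPM in females and -53.3 CPM in males.

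No paired analysis was possible because the groups share no replicate numbers. The labels do not name cages or batches beyond a position, so shared cages and housing cannot be told apart. Depth limits Nrg4, with 8 to 88 counts per library.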
